A study of Mus musculus with 18 samples.

Results

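Antiviral interferon-stimulated effectors are the genes through which a cell exposed to interferon senses, degrades or contains a virus, and 36 of them were followed here in T cells exposed to small extracellular vesicles (sEV). The 36 genes were chosen by name and function, with the IRG and GBP GTPases and the interferon signalling factors left out. The choice was made with earlier results of these data known. Of the 36 genes, 34 had a probe set with their symbol, 1 each, among 22206 probe sets of which 19572 carried a gene symbol. Ifi44 and Ly6a were not analysed here. In Foxp3 YFP/cre mice, whose regulatory T cells (Treg) express a fluorescent reporter, the spleen was the source of sorted CD4+ conventional T cells (Tconv), CD8+ T cells and Treg, each kept for 24 h in culture in the presence of IL2 (10 ng/ml) and sEV. The sEV came either from the leukemia microenvironment (LME-sEV) in the spleens of TCL1 mice, in which a transgene active in B cells drives a disease resembling chronic lymphocytic leukemia, or from the microenvironment of healthy control spleens (HCME-sEV). Total RNA was hybridized to 18 Clariom S mouse arrays, 3 in each of the 6 groups of subset and sEV, and the question here was which antiviral genes LME-sEV altered relative to HCME-sEV. All 6 groups thus share the reporter allele, the IL2 and the exposure to sEV of one kind or the other, and no group was cultured without sEV. The labels give 50 ug/ml sEV for every sample whereas the methods scale amounts to what each kind of spleen contains, so equal dosing is not settled and cannot be told apart from the kind of sEV. The labels do not say that the replicates came from separate animals or cultures, so the adjusted p-values measure the spread between these arrays, which may be technical.

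Type I interferons bind a common receptor and act on their target genes mainly through the interferon-stimulated response element (ISRE) near the start of the gene, while interferon gamma acts mainly through the gamma-activated site (GAS). The induced proteins sense viral RNA or DNA (RIG-I, MDA5, ZBP1), block translation or destroy RNA (IFIT and OAS proteins, PKR), deplete nucleotides or trap virions (viperin, SAMHD1, tetherin) and attach or remove the ubiquitin-like ISG15. In T cells some of them are made without infection, at levels set by tonic interferon, and others only after exposure to interferon.

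The promoters were searched for the ISRE and the GAS, and stretches are printed for some of the genes with a match. RefSeq promoter windows (GRCm38.p6, 250 bases before to 50 bases after the start) were matched for 26 of the 36 genes. Zbp1, Usp18 and Rtp4 were among the genes without a window. The genes were picked as interferon-stimulated, which bears on the shares that follow. The ISRE core, searched on both strands as TTTCNNTTTC, was in the window of 14 of these 26 genes (53.8%) against 3.99% of all 27025 genes with a window (3.44% of 32851 windows). The GAS, searched as the palindrome TTCNNNGAA, was in 7 of the 26 (26.9%), against 9.55% of all genes (8.30% of windows). In the stretches printed here, all on the strand of the gene and ending at or before its start, capitals mark every ISRE core match of the stretch, on either strand.
Bst2: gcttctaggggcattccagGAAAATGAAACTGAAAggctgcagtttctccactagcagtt
Trim30a: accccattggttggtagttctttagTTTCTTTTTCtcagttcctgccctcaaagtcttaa
Ifit1: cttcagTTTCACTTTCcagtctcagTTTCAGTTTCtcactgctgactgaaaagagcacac
Ifit3: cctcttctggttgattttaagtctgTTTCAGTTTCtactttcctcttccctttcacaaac
Ifit3b: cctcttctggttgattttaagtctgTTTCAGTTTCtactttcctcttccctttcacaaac
Oas1a: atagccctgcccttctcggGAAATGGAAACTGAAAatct
Isg15: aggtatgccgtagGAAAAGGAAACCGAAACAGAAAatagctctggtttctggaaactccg
Rsad2: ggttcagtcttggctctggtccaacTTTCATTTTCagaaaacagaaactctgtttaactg
Cxcl10: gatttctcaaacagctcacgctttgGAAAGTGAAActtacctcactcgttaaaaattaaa

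These stretches lie at chr8:71537562-71537621 for Bst2, chr7:104465195-104465254 for Trim30a, chr19:34640779-34640838 for Ifit1, chr19:34583382-34583441 for Ifit3 and chr19:34607778-34607837 for Ifit3b. Those of the other genes lie at chr5:120907526-120907564 for Oas1a, chr4:156200850-156200909 for Isg15, chr12:26456538-26456597 for Rsad2 and chr5:92349068-92349127 for Cxcl10. The genes Ifit1, Ifit3 and Ifit3b lie on the plus strand and the others on the minus strand. The Isg15 stretch holds 3 overlapping matches, the highest number among these genes, and the Ifit3 and Ifit3b stretches are identical letter for letter. In Bst2 a GAS match overlaps the ISRE core, and GAS matches not printed here stand in Ifit2, Oas1a, Samhd1 and Ifi35. Others stand in Isg20 and Eif2ak2, where capitals mark the GAS.
Isg20: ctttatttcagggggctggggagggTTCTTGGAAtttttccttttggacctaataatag
Eif2ak2: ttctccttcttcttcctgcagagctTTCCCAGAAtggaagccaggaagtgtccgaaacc

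The Isg20 stretch is at chr7:78913326-78913384 on the plus strand, in 1 of 3 promoter windows of that gene, and the Eif2ak2 stretch at chr17:78882717-78882775 on the minus strand. Eif2ak2, Ddx58, Ifih1 and Trim21 carry their ISRE core after the start of the gene. These matches describe letters in a window and do not show that a factor was bound.

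The values were log2 signals, and a background was set in each subset as the 95th percentile of 1429 probe sets for olfactory, vomeronasal and trace amine receptors, genes not expected in T cells. It was 8.80 in CD4+ Tconv, 8.08 in CD8+ T cells and 7.62 in Treg. A gene counted as above this line where its higher group mean was, so either kind of sEV could admit it alone. Probe sets differ in affinity, so a gene below the line may still be expressed, and some receptor probe sets lie above it. All 6 measured T-cell markers, Cd3d among them, were above background in each subset. Of 6 markers of the sorted subsets, a list that mixes those of all 3, 2 were above it in CD4+ Tconv, 3 in CD8+ T cells and 5 in Treg. Among these, Cd8b1 had a mean of 17.18 ± 0.12 (SD, n = 3) on the HCME arrays of CD8+ T cells. Ikzf2, a Treg transcription factor, had a mean of 11.29 ± 0.55 on those of Treg. The distance from the 95th percentile of the receptor probe sets to the upper decile of an array was 1.54 to 1.98 on the CD4+ Tconv HCME arrays and 0.73 to 1.15 on the LME arrays, so both CD4+ groups, and the LME group more so, had little room above background. This distance was 3.48 to 3.67 (HCME) and 3.39 to 3.99 (LME) in CD8+ T cells and 2.59 to 3.37 and 3.09 to 3.49 in Treg. In CD4+ Tconv 1256 of the 1429 receptor probe sets (87.9%) had a higher mean on the LME arrays, and their median log2 difference was 0.32. The receptor median was 0.00 in CD8+ T cells and -0.07 in Treg. Treg HCME array 3 stood apart, with the shortest distance of the Treg arrays and a mean correlation of 0.926 with the others of the subset.

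Of the 34 antiviral genes, 9 were above background in CD4+ Tconv, 19 in CD8+ T cells and 18 in Treg. The same 9 were above it in all 3 subsets, namely the RNA sensor gene Ddx58 (RIG-I), the Z-nucleic acid sensor Zbp1, the RNA-binding Ifit3, the dNTPase Samhd1, Bst2 (tetherin, which holds virions at the cell surface), Rtp4, the ISG15 protease Usp18, the ubiquitin ligase Trim30a and the pro-apoptotic Xaf1. In no subset above it were 14 genes, which include most of the genes commonly used to read an interferon response: Isg15, Mx1, Mx2, Oas1a, Oas2, Oas3, Oasl1, Oasl2, Rsad2 (viperin), Cmpk2, Cxcl10, Ifit2, Dhx58 and Trim21. Of the 14 genes with an ISRE core, 4 were above background in CD4+ Tconv, 8 in CD8+ T cells and 6 in Treg.

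None of the 34 genes passed the test in any subset. A gene was called where limma gave an adjusted p below 0.05, over all 22206 probe sets, and an absolute log2 difference (LME minus HCME) above 1. Over all probe sets 1.01% were called in CD4+ Tconv (225 probe sets), 0% in CD8+ T cells and 0% in Treg, so in the latter pair of subsets no gene of any kind was called. The smallest adjusted p of an antiviral gene was 0.124 in CD4+ Tconv, 0.778 in CD8+ T cells and 0.756 in Treg. At an unadjusted p below 0.05 there were 5 antiviral genes in CD4+ Tconv against 18.8% of all probe sets, 4 in CD8+ T cells against 4.22% and 10 in Treg against 6.12%. With 1 array left out the Treg number was 14 (LME array 3), 6 (HCME array 2 or LME array 1) or 5 (LME array 2). The CD8+ number was 1 without HCME array 1, and the CD4+ number was 3 (HCME array 1 or HCME array 2 left out) or 2 (LME array 2).

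**Figure D1:**
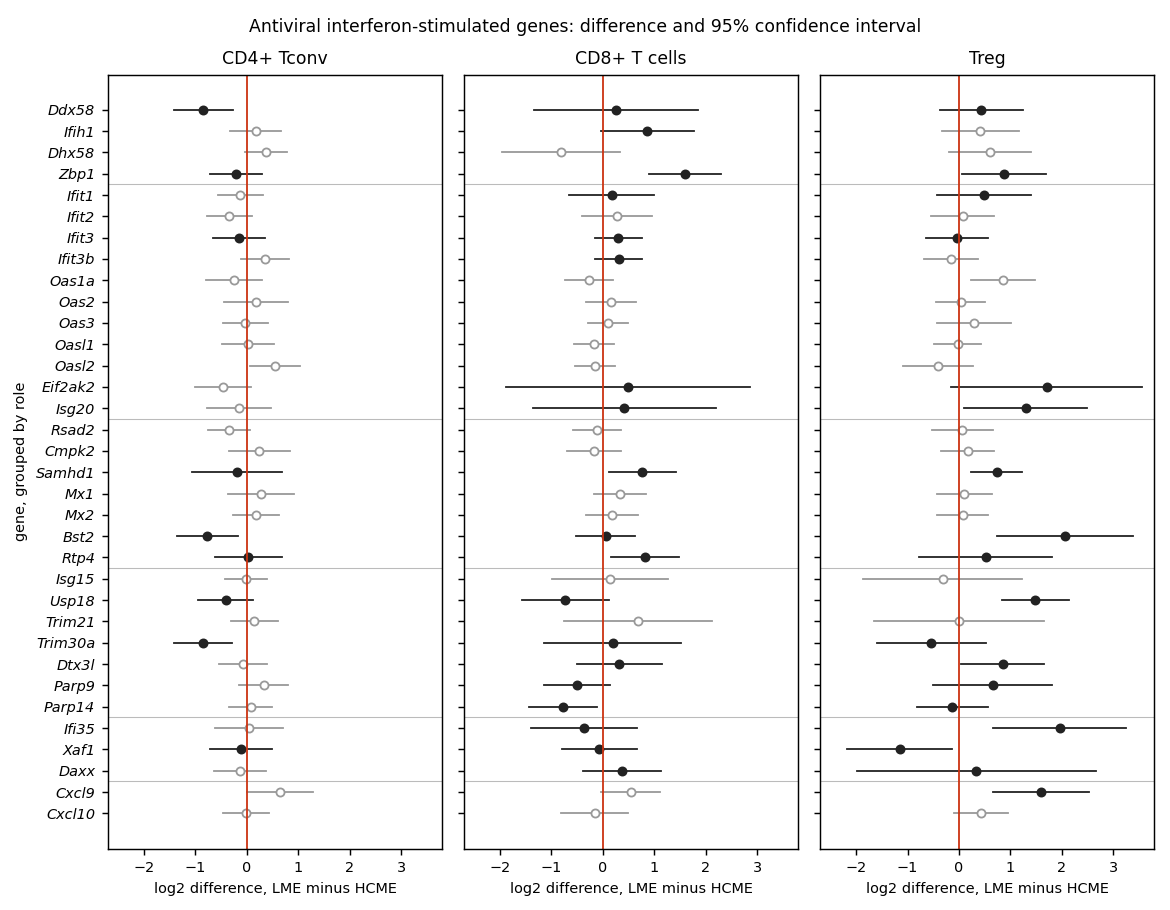
Log2 difference (LME minus HCME) of the 34 antiviral genes in each subset, with the 95% confidence interval from limma, 3 arrays per group. Genes are grouped by role between the grey lines, filled points are above background and open points are not, and in Treg the points of Bst2, Ifi35, Eif2ak2, Cxcl9 and Usp18 stand farthest to the right.

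The differences were spread differently in the 3 subsets. In Treg the median over the 34 genes was 0.38, with 25 genes higher and 8 lower after LME-sEV, beside a median of -0.06 over all probe sets and 0.04 over those above background. The CD8+ median was 0.18 with 22 higher, beside 0.00 and -0.02. In CD4+ Tconv it was -0.02 with 15 higher, beside 0.07 over all probe sets and -0.32 over those above background. Of the 9 antiviral genes above background there 1 was higher, against 29.7% of all probe sets above background. Ddx58 (means 9.32 HCME, 8.48 LME) and Bst2 (9.22 and 8.45) passed the background only through HCME. This count by direction is therefore not independent of the filter. The receptor probe sets of that subset had a median of 0.32, and the part of their rise in the antiviral values was not tested. The groups of arrays did not overlap for 10 antiviral genes in Treg, all of them higher after LME-sEV, where 4.72% of all probe sets were separated upwards and 7.53% downwards. Of the CD8+ values 4 genes were separated upwards and 1 downwards, against 4.35% and 4.25% of all probe sets. In CD4+ Tconv the numbers were 2 upwards and 5 downwards, against 11.6% and 11.8%. Without Treg HCME array 3 the Treg median was 0.30, with 25 genes higher. Single arrays weighed on these values, since the Treg median was 0.17 without LME array 2, and the CD8+ median was 0.04 when HCME array 1 was left out, 0.08 when LME array 1 was and 0.03 when LME array 2 was.

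**Figure D2:**
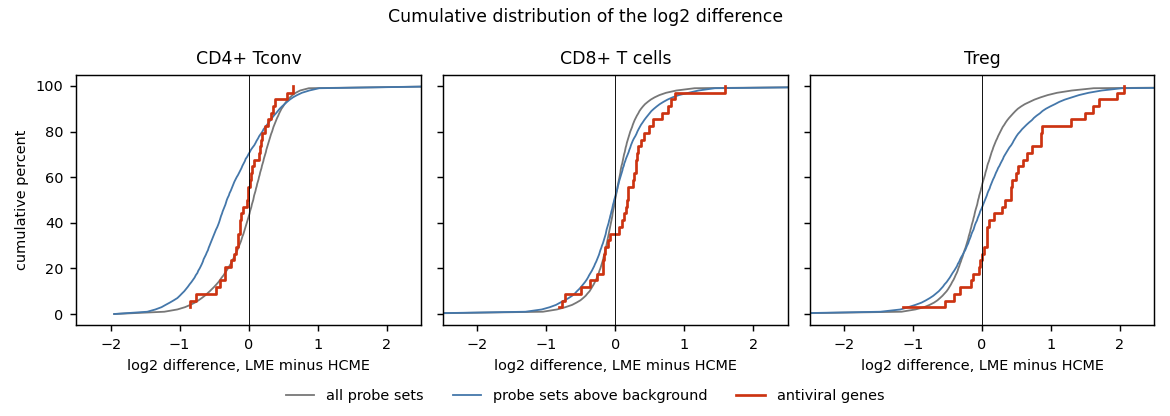
Cumulative percent of genes (y) against the log2 difference, LME minus HCME (x), for the 34 antiviral genes in red, all 22206 probe sets in grey and probe sets above background in blue. The red line lies to the right of both others over most of its range in Treg, where the antiviral median was 0.38, and between them around the median in CD4+ Tconv.

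The same genes can be read per array as their mean log2 signal. In Treg this mean was 7.46, 7.37 and 7.17 on the 3 HCME arrays and 7.81, 7.96 and 7.58 on the 3 LME arrays. The LME arrays were all above the HCME arrays, with LME array 3 and HCME array 3 the lowest of their groups. The CD8+ means were 7.90 to 8.05 on the HCME arrays and 8.02 to 8.29 on the LME arrays, and in CD4+ Tconv 7.49 to 7.60 and 7.46 to 7.54, with overlap in both.

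Among the sensors of viral nucleic acid all 4 genes had a higher mean in Treg after LME-sEV, by 0.42 to 0.88. Zbp1, which recognizes Z-form nucleic acid and can start necroptosis, was at 9.65, 9.59 and 9.43 on the HCME arrays and at 10.70, 10.91 and 9.69 on the LME arrays of Treg. The groups did not overlap, though LME array 3 was close to the HCME arrays, and the log2 difference of 0.88 (SE 0.34) did not pass in limma (adjusted p = 0.800). In CD8+ T cells Zbp1 was at 10.72, 10.33 and 9.92 after HCME-sEV and at 12.04, 12.26 and 11.45 after LME-sEV. Every LME array was above every HCME array. The difference of 1.59 (SE 0.30), a 3.02-fold higher signal, was the highest of any antiviral gene in that subset and did not pass (limma, adjusted p = 0.778). In CD4+ Tconv Zbp1 was at 8.91, 9.49 and 8.96 and at 8.98, 9.12 and 8.62, which overlapped, with a difference of -0.21 (SE 0.23).

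Ifih1 (MDA5, a sensor of long double-stranded RNA) was named in CD8+ T cells, where it lay at 7.38, 7.51 and 7.72 on the HCME arrays and at 7.53, 8.95 and 8.73 on the LME arrays. LME arrays 2 and 3 were high and LME array 1 fell among the HCME arrays, so the groups overlapped at a difference of 0.87 (SE 0.38, limma, adjusted p = 0.998). Ddx58 (RIG-I, a sensor of short RNA with a 5′ triphosphate) was lower in CD4+ Tconv after LME-sEV, at 9.74, 9.37 and 8.86 on the HCME arrays and 8.76, 8.13 and 8.54 on the LME arrays. The groups were separated by a narrow gap, with a difference of -0.85 (SE 0.26, limma, adjusted p = 0.130), and all 3 LME values were below the background of 8.80. In Treg and CD8+ T cells Ddx58 differed by 0.43 (SE 0.34) and 0.25 (SE 0.67), and LME array 3 was the lowest array for it in both.

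Effectors acting on RNA and translation were 11 genes, with a median difference of 0.07 in Treg, 0.17 in CD8+ T cells and -0.13 in CD4+ Tconv. Eif2ak2 (PKR, a kinase that halts translation on sensing double-stranded RNA) was at 8.66, 8.45 and 5.82 on the Treg HCME arrays and at 10.17, 9.06 and 8.81 on the LME arrays. The groups did not overlap, but HCME array 3 was far below the other HCME arrays. The difference was 1.70 (SE 0.78, limma, adjusted p = 0.800) with that array and 0.79 without it. Isg20, a nuclease that degrades single-stranded RNA, was at 7.87, 7.83 and 7.09 on the HCME arrays and at 9.35, 9.57 and 7.76 on the LME arrays of Treg. LME arrays 1 and 2 were high and LME array 3 lay among the HCME arrays, with a difference of 1.30 (SE 0.51, limma, adjusted p = 0.800). Both genes scattered widely in CD8+ T cells, with an LME range of 6.35 to 10.03 for Eif2ak2 and of 7.50 to 10.56 for Isg20.

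The OAS family, whose active members make the messenger that switches on RNase L, is represented by Oas and Oasl genes, and all 5 measured were below background in every subset. Oas1a was at 6.46, 6.24 and 6.57 on the HCME arrays and at 7.40, 7.59 and 6.83 on the LME arrays of Treg, without overlap. Its difference was 0.85 (SE 0.26, limma, adjusted p = 0.800) in Treg, against -0.27 (SE 0.20) in CD8+ T cells and -0.25 (SE 0.25) in CD4+ Tconv. Oasl2 was 0.55 higher in CD4+ Tconv (SE 0.22, limma, adjusted p = 0.216), where the receptor probe sets had a median difference of 0.32. Its difference in Treg was -0.41 (SE 0.29). The IFIT genes, among them Ifit1, whose product binds RNA that lacks the host's cap methylation, differed in Treg by 0.49 (Ifit1), 0.07 (Ifit2), -0.04 (Ifit3) and -0.16 (Ifit3b), with SE from 0.23 to 0.38. The values of Ifit3 and Ifit3b are uncertain, since these paralogs are alike in sequence and a probe set can pick up RNA of both.

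The 7 genes acting on nucleotides, entry and release all had a higher mean after LME-sEV in Treg. Bst2, named above as tetherin, showed the largest difference of all 34 genes there. It was at 8.27, 9.07 and 8.14 on the HCME arrays and at 11.35, 10.99 and 9.30 on the LME arrays. LME arrays 1 and 2 were far above all others, and LME array 3 only just above HCME array 2. The log2 difference was 2.05 (SE 0.56, 95% confidence interval 0.73 to 3.38), a 4.15-fold higher signal, with an adjusted p of 0.800 in limma. Over 15 alternative fits the difference ran from 1.65 to 2.68 and it was 1.88 without HCME array 3. In CD4+ Tconv Bst2 went the other way, at 9.57, 9.07 and 9.02 on the HCME arrays and 8.70, 7.89 and 8.76 on the LME arrays. These groups did not overlap either, with a difference of -0.77 (SE 0.27, limma, adjusted p = 0.166). In CD8+ T cells it was at 9.94, 9.74 and 10.43 and at 9.88, 10.34 and 10.05, interleaved, with a difference of 0.05 (95% confidence interval -0.51 to 0.62).

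**Figure D3:**
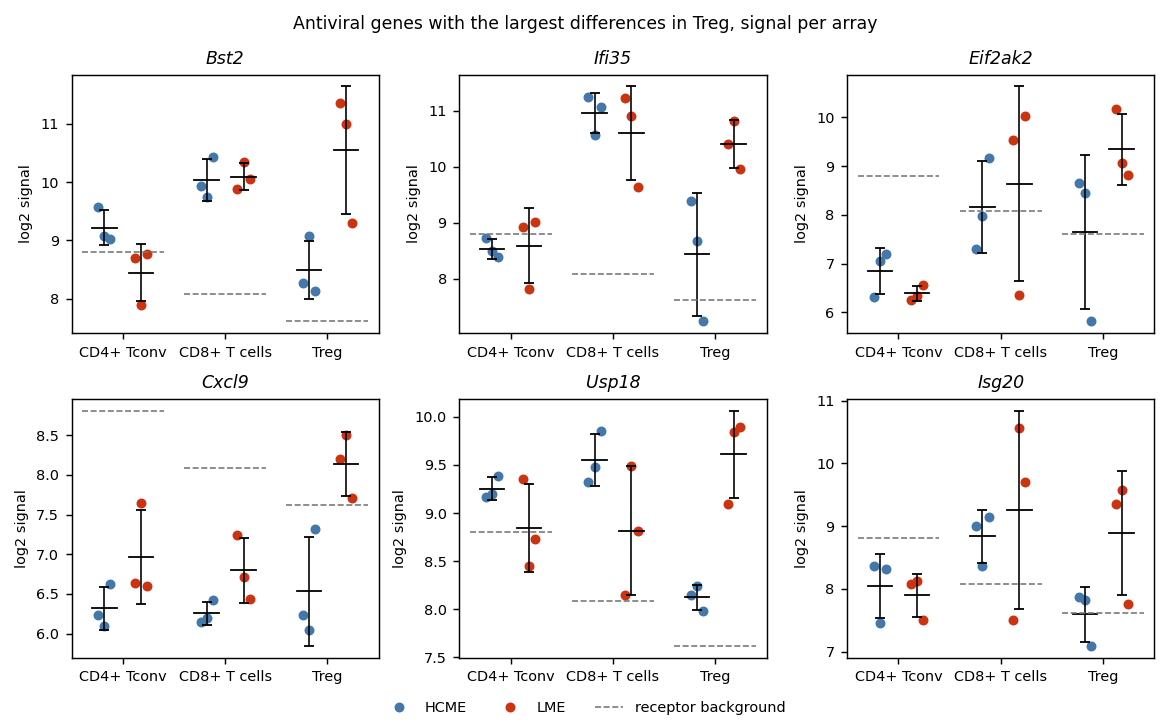
Log2 signal per array of the 6 antiviral genes with the largest differences in Treg, in all 6 groups, with mean ± SD (n = 3) and the receptor background of each subset as a dashed line. For Bst2 the LME arrays are above the HCME arrays in Treg and below them in CD4+ Tconv, and HCME array 3 of Treg is the low point of Ifi35 and Eif2ak2.

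Samhd1, which breaks down the dNTPs that reverse transcription needs, had high signals in all subsets. It was at 14.07, 13.74 and 13.66 on the HCME arrays and at 14.65, 14.49 and 14.52 on the LME arrays of Treg. The CD8+ values were 12.77, 12.96 and 12.59 and 13.47, 14.06 and 13.10. Both comparisons showed every LME array above every HCME array, by 0.73 (SE 0.21, limma, adjusted p = 0.800) and 0.77 (SE 0.27, limma, adjusted p = 0.998). In CD4+ Tconv it was at 11.18, 11.06 and 10.27 and at 11.14, 9.62 and 11.18, with LME array 2 the lowest and a difference of -0.19 (SE 0.40).

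Rtp4, an interferon-induced chaperone of cell surface receptors, was at 8.54, 9.06 and 8.97 on the HCME arrays and 9.74, 10.08 and 9.19 on the LME arrays in the CD8+ subset. The groups were separated, with a difference of 0.81 (SE 0.28, limma, adjusted p = 0.998), whereas in Treg they overlapped, LME array 3 being the lowest of the 6, at 0.52 (SE 0.55). The other 4 genes of this role, Mx1, Mx2, Rsad2 and Cmpk2, were below background throughout and differed by -0.34 to 0.33 over the 3 subsets.

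In the ISG15 and ubiquitin group of 7 genes the median difference was 0.00 in Treg, with 3 higher and 3 lower. Usp18, which removes ISG15 from proteins and restrains type I interferon receptor signalling, was at 8.15, 8.24 and 7.98 on the HCME arrays of Treg and at 9.09, 9.84 and 9.90 on the LME arrays. The arrays of each group lay close together and apart from the other group. Its difference of 1.49 (SE 0.28, 95% confidence interval 0.83 to 2.14) had the smallest adjusted p of the 34 genes in Treg, 0.756 in limma. CD8+ T cells had Usp18 at 9.32, 9.48 and 9.85 after HCME-sEV and at 8.15, 9.49 and 8.81 after LME-sEV, lower in the mean but overlapping, at -0.73 (SE 0.35, limma, adjusted p = 0.998). In CD4+ Tconv it was at 9.17, 9.20 and 9.39 and at 9.35, 8.45 and 8.73, also overlapping, at -0.41 (SE 0.24, limma, adjusted p = 0.388).

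Trim30a, a negative regulator of NF-kB signalling in the mouse, had the smallest adjusted p of these genes in CD4+ Tconv. It was at 10.85, 10.46 and 10.42 on the HCME arrays and at 9.22, 10.16 and 9.78 on the LME arrays. All LME arrays were lower, with a difference of -0.86 (SE 0.26, limma, adjusted p = 0.124). Without LME array 2 the difference was -1.08 with an adjusted p of 0.0460 in limma, the only setting in which an antiviral gene was called within a subset. Parp14, an ADP-ribosyltransferase, was the one antiviral gene separated downwards in CD8+ T cells, at 9.84, 9.14 and 8.86 and at 8.49, 8.68 and 8.33, by -0.78 (SE 0.28, limma, adjusted p = 0.998). Dtx3l, the ubiquitin ligase partner of Parp9, was 0.85 higher in Treg (SE 0.34, limma, adjusted p = 0.800), with LME arrays 1 and 2 at 10.89 and 10.92 and LME array 3 at 9.77, next to the HCME maximum of 9.73.

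**Figure D4:**
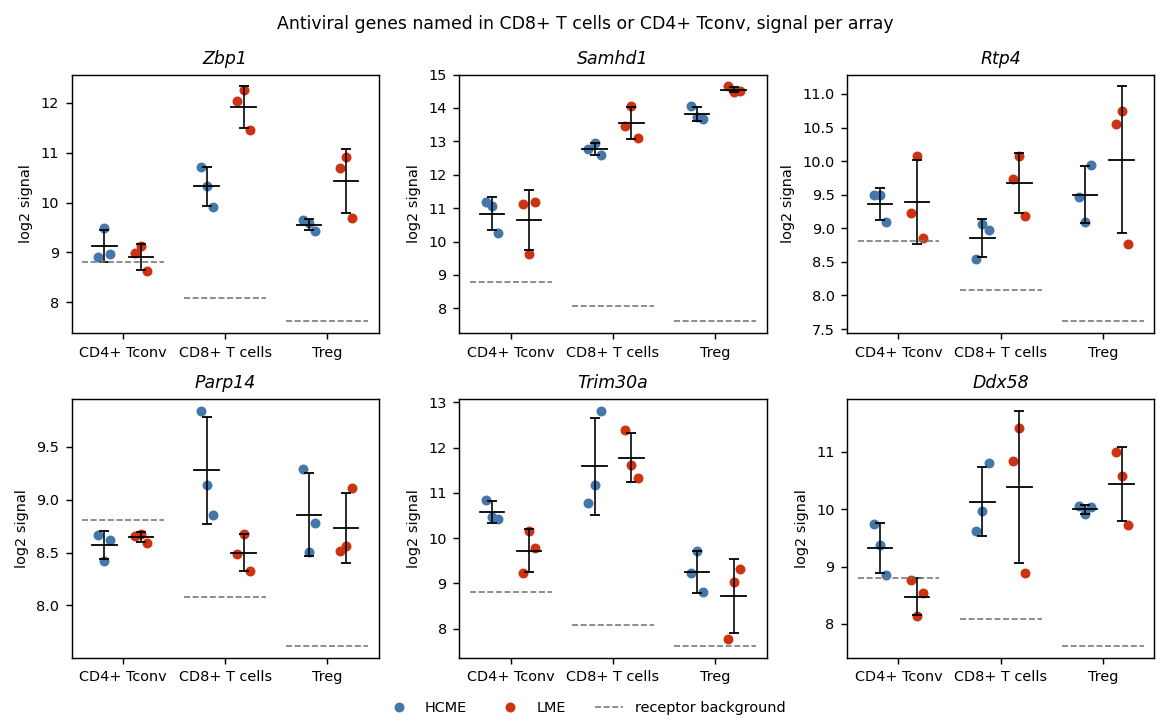
Log2 signal per array of 6 antiviral genes named in CD8+ T cells or CD4+ Tconv, in all 6 groups, with mean ± SD (n = 3) and the receptor background as a dashed line. Zbp1, Samhd1 and Rtp4 are higher on each CD8+ LME array than on any CD8+ HCME array, and Trim30a and Ddx58 are lower on every LME array of CD4+ Tconv.

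Ifi35, which binds other interferon-induced proteins and modulates RIG-I signalling, was at 9.39, 8.67 and 7.24 on the HCME arrays and at 10.41, 10.82 and 9.96 on the LME arrays of Treg. The LME arrays were all higher, and HCME array 3 was again the lowest. The difference of 1.96 (SE 0.55, limma, adjusted p = 0.800) was 1.37 without that array. Xaf1, a pro-apoptotic factor, was lower in Treg, with a difference of -1.15 (SE 0.43, limma, adjusted p = 0.800) and overlapping arrays. Cxcl9, a T-cell attracting chemokine that depends mainly on interferon gamma, was at 6.24, 6.04 and 7.32 on the HCME arrays and at 8.20, 8.50 and 7.71 on the LME arrays of Treg. Only the LME arrays reached background there, and the difference was 1.60 (SE 0.39, limma, adjusted p = 0.766). In CD8+ T cells and CD4+ Tconv the Cxcl9 differences were 0.54 (SE 0.24) and 0.64 (SE 0.29), at signals below background in both. The receptor probe sets of CD4+ Tconv had a median difference of 0.32.

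Several of the genes commonly read as markers of an interferon response were near the bottom of the signal range, where an interval describes the signal and does not bound the change in RNA. In Treg, Isg15 was at 7.70, 7.76 and 5.48 on the HCME arrays and at 6.49, 7.34 and 6.17 on the LME arrays, with HCME array 3 the lowest and a difference of -0.31 (95% confidence interval -1.86 to 1.23). Without that array it was -1.06. Ifit1 was at 8.08, 7.66 and 8.05 and at 8.63, 9.02 and 7.60, where LME array 3 was the lowest of the 6, with a difference of 0.49 (-0.42 to 1.40). The intervals of these 2 genes both include differences above 1, and that of Isg15 also reaches down to -1.86.

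For the other hallmark genes the Treg intervals were narrower. Mx1, a GTPase that blocks influenza virus, was at 5.63, 5.78 and 6.19 and at 5.98, 5.95 and 5.97, with a difference of 0.10 (95% confidence interval -0.43 to 0.63). Oas2 was at 4.27, 4.11 and 4.39 and at 4.33, 4.19 and 4.34, with a difference of 0.03 (-0.44 to 0.50). Rsad2, or viperin, was at 4.07, 4.69 and 4.25 and at 4.65, 4.24 and 4.32, with a difference of 0.07 (-0.53 to 0.66). In these 3 genes the arrays of both groups were interleaved. The chemokine Cxcl10 was at 4.49, 4.43 and 4.12 and at 4.57, 4.86 and 4.89, separated but with a difference of only 0.43 (-0.09 to 0.94). Signals this far below background are compressed, so a log2 difference there may understate a change in RNA.

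**Figure D5:**
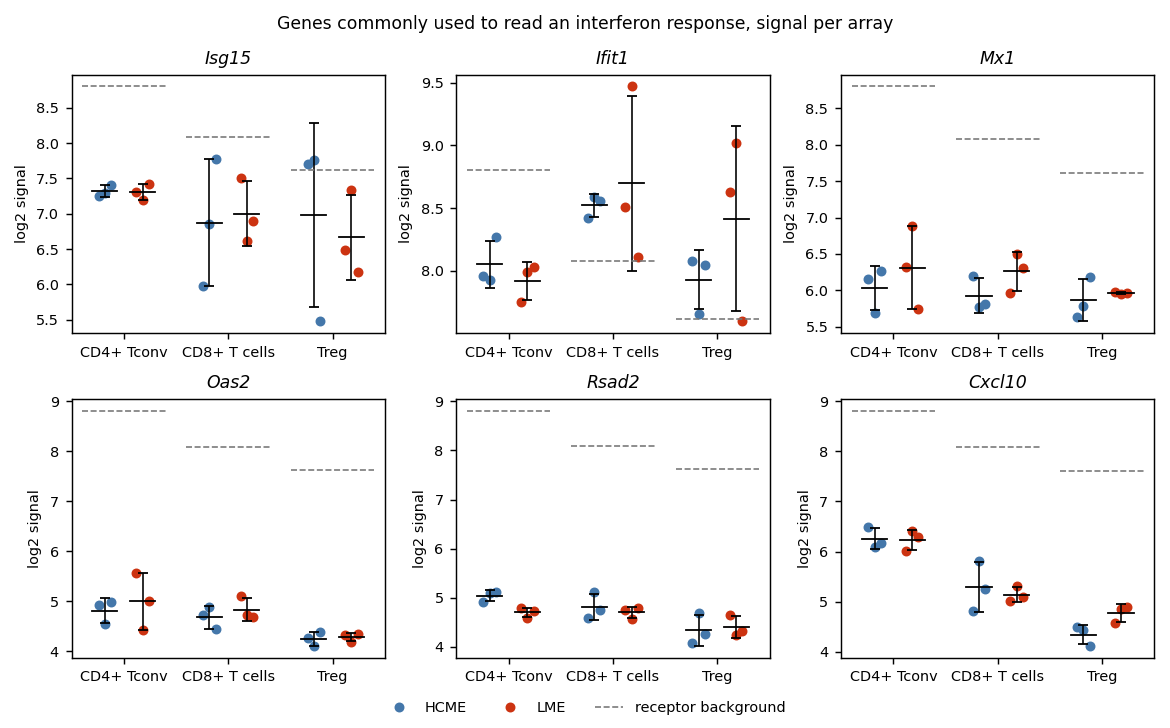
Log2 signal per array of 6 genes commonly used to read an interferon response, in all 6 groups, with mean ± SD (n = 3) and the receptor background as a dashed line. Mx1, Oas2, Rsad2 and Cxcl10 are below background on all 18 arrays, whereas Ifit1 is above it on most arrays of CD8+ T cells and Treg.

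Genes with and without an ISRE core were set side by side, without a test. In Treg the 14 genes with the core had a median difference of 0.36, with a range of -0.54 to 2.05, and the 11 measured genes with a window but no core had a median of 0.34, with a range of -1.15 to 1.96. In CD8+ T cells the medians were 0.18 and 0.28, with ranges of -0.27 to 0.87 and -0.37 to 0.77. In CD4+ Tconv they were -0.14 and -0.08, with ranges of -0.86 to 0.36 (3 of 14 higher) and -0.34 to 0.64 (5 of 11 higher). Bst2 and Isg15, whose stretches are printed above, both carry the core and differed in Treg by 2.05 and -0.31.

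Whether the effect of LME-sEV differed between subsets was tested as a contrast in 1 fit of the 18 arrays (adjusted p below 0.05). None of the 34 genes passed, where 0.0135% of all probe sets did for Treg minus CD4+ Tconv, 0.00901% for Treg minus CD8+ T cells and 0% for CD8+ T cells minus CD4+ Tconv. At an unadjusted p below 0.05 there were 6, 7 and 4 antiviral genes, against 15.3%, 7.54% and 6.94% of all probe sets. The Bst2 effect was 2.82 higher in Treg than in CD4+ Tconv (SE 0.60, limma, adjusted p = 0.0872) and 2.00 higher than in CD8+ T cells (SE 0.60, limma, adjusted p = 0.386). The Usp18 effect was 1.90 higher than in CD4+ Tconv (SE 0.44, limma, adjusted p = 0.107) and 2.22 higher than in CD8+ T cells (SE 0.44, limma, adjusted p = 0.150). Single arrays decided these calls, since Bst2 passed against CD4+ Tconv without Treg LME array 3 (adjusted p = 0.0107) and Usp18 passed against CD8+ T cells without CD8+ LME array 2 (adjusted p = 0.0397). The Zbp1 effect was 1.81 higher in CD8+ T cells than in CD4+ Tconv (SE 0.44, limma, adjusted p = 0.496).

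Other interferon-stimulated antiviral genes were read beside these, 52 of them. In CD4+ Tconv 1 was called, Shisa5, an interferon-induced regulator of apoptosis, which fell from 12.44 ± 0.55 to 10.59 ± 0.37 (SD, n = 3), a log2 difference of -1.85 (SE 0.29, limma, adjusted p = 0.0358), beside 1.01% called over all probe sets. Lower were 43 of the 52 and higher 9 (17.3%), against 57.2% of all probe sets higher. The median was -0.42 over the list and -0.48 over its 28 genes above background, of which 3 were higher (10.7%). Over all probe sets above background in CD4+ Tconv the median was -0.32 and 29.7% were higher. The background filter admits a gene through its higher group, so these counts by direction are not independent of it. Ly6e, a membrane protein that restricts coronavirus entry, had a difference of -1.82 (SE 0.43, limma, adjusted p = 0.0690) there and Ifi27 one of -1.65 (SE 0.46, adjusted p = 0.102). In CD8+ T cells and Treg 0 were called, with 26 (50.0%) and 31 (59.6%) of the 52 higher, against 49.3% and 43.4% of all probe sets. The Treg list median was 0.09 (0.03 over the 41 above background), and its values ran from -1.13 (Trim14, SE 0.94) to 1.97 (Nt5c3, SE 1.19). They included 1.66 (SE 0.37) for Oas1g, a close relative of Oas1a, and 1.39 (SE 0.41) for the RNA editor Adar, both with separated arrays and an adjusted p of 0.766 and 0.800 in limma. The 10 interferon genes measured differed by -0.37 to 0.59 over all subsets with 0 called. Probe sets of 3 interferon genes were above background in CD4+ Tconv, 5 in CD8+ T cells and 4 in Treg, with Ifna1, Ifna5 and Ifnl3 above it in all 3 subsets. Such signals do not show that interferon genes were expressed, since probe sets differ in affinity. Ifna5 had means of 10.28 and 10.56 in CD4+ Tconv, with separated arrays and a difference of 0.28 (SE 0.18, limma, adjusted p = 0.432). The receptor probe sets used as background had a median difference of 0.32 in that subset, and 24.2% of them were separated upwards. The Ifna5 differences were 0.10 in CD8+ T cells and 0.04 in Treg. Ifnb1 and Ifng were below background in each subset, Ifng with means of 7.12 ± 0.26 (HCME) and 7.32 ± 0.26 (LME) in Treg.

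Among 16 receptors and transcription factors of the interferon pathway 0 were called. In Treg 10 of the 16 were higher and 6 lower, where 43.4% of all probe sets were higher. Ifngr1, the ligand-binding chain of the interferon gamma receptor, had a Treg difference of 2.41 (SE 0.47, limma, adjusted p = 0.756) with separated arrays. Its HCME arrays scattered, with an SD of 0.98. Ifngr2, a chain of the same receptor, went the other way in Treg, at -0.81 (SE 0.43, limma, adjusted p = 0.815). Irf9, a subunit of the factor that binds the ISRE, was 1.44 higher in CD8+ T cells (SE 0.46, limma, adjusted p = 0.998), also separated. In CD4+ Tconv Irf3 and Ifnar2 were lower by differences of -1.14 (SE 0.24, limma, adjusted p = 0.0505) and -1.02 (SE 0.25, adjusted p = 0.0724).

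The 6 T-cell markers had a median difference of 0.52 in Treg, 6 of 6 higher, where their mean per array was 13.31 to 14.42 (HCME) and 14.42 to 14.66 (LME), and of -0.67 in CD4+ Tconv, 6 of 6 lower, at 13.46 to 13.83 and 12.83 to 13.06. The CD8+ median was -0.06. The 6 markers of the sorted subsets were all higher in Treg after LME-sEV, by 0.04 to 2.44 with a median of 0.39. Their mean per Treg array was 8.65 to 9.75 (HCME) and 9.75 to 10.13 (LME). In CD4+ Tconv 4 of these 6 were higher and in CD8+ T cells 3. The part of such a shift in the antiviral differences was not tested. Fewer cells of a kind and less RNA per cell cannot be told apart in such bulk samples, and the part of signal range in the antiviral differences was not tested. Of other cell types, the 12 B-cell markers had a mean per Treg array of 6.70 to 6.95 (HCME) and 6.81 to 7.07 (LME), and the median difference was 0.01 with 7 of 12 higher. Of the 5 above background, Pax5 and Ebf1 had differences of 1.20 (SE 0.52) and 1.08 (SE 0.58), and Blk, Fcmr and Bank1 of -0.35, -0.33 and -0.03. Ebf1 was separated upwards and Cd22, below background, downwards at -0.74 (SE 0.23), beside 4.72% and 7.53% of all probe sets. The 16 markers of monocytes, macrophages and dendritic cells were at 6.75 to 6.96 and 6.75 to 6.84, with 3 above background, of which Cst3 differed by 1.55 (SE 0.73), while the macrophage receptor Csf1r was at 5.42 ± 0.32 and 5.05 ± 0.28. Neutrophil markers (7 genes) were at 6.63 to 7.67 and 6.12 to 7.08, and NK-cell markers (5 genes) at 6.33 to 6.60 and 5.86 to 6.03. The part of these cells in the antiviral differences was not tested.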

How the data were processed

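Total RNA of the 18 samples was measured on Clariom S mouse arrays. The log2 values used were those deposited by the authors, who used the Transcriptome Analysis Console on the scans. Not given in the sources used here were the normalization, its extent over subsets and the genome build. Labels and methods name different labelling kits. Levels were therefore compared within a subset, and effects between subsets.

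Each sample's title gave its group and replicate number, and began with a serial number. These serial numbers set the CD4+ Tconv arrays apart from those of the other subsets. Within CD4+ Tconv they place all HCME arrays before all LME arrays, so their order cannot be told apart from the kind of sEV. The labels do not say what the serial numbers mean. Probe sets were named from the platform annotation (19572 with 1 symbol, 2634 with none). No 2 arrays were identical. Each subset of 6 arrays was fitted by lmFit and eBayes of limma 3.58.1 (R 4.3.3), and differences between effects over all 18 arrays, with Benjamini-Hochberg adjustment over 22206 probe sets. Both fits were tested on simulated data. The number of arrays limits the precision. The members and lists were chosen with earlier results of these data known. Values per array were given for called genes, for the 6 genes above background with the largest absolute difference in a subset and for Isg15, Ifit1, Mx1, Oas2, Rsad2 and Cxcl10 in Treg, and for up to 4 genes of each other list group means or differences were given. Array values of Oas1a, Dtx3l, Zbp1 and Samhd1 in Treg and of Bst2, Eif2ak2 and Isg20 in CD8+ T cells were added after they were seen. So were the values of Adar, Ifng, Ifnb1, Ebf1, Csf1r and Ifngr2. Alternatives were other normalizations, centring, a filter on dim probe sets, no fold threshold, limma's trend, robust and array weight options, all arrays in one fit, a replicate block, the unpaired Student test that the study names for its other figures and each array left out.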

Additional observations from a re-analysis of the deposited data

Results flagged for a closer look

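The effect of LME-sEV on Bst2 was 2.82 log2 units higher in Treg than in CD4+ Tconv (SE 0.60, 95% confidence interval 1.54 to 4.10). It stands out because every LME array of Treg was above every HCME array, while every LME array of CD4+ Tconv was below every HCME array. The difference between the effects was tested in limma over all 18 arrays and did not pass (adjusted p = 0.0872). In CD4+ Tconv the LME values of 8.70, 7.89 and 8.76 all lay below the receptor background of 8.80, and all 6 T-cell markers were higher in Treg and lower in CD4+ Tconv, as Bst2 was. The titles number the CD4+ Tconv arrays apart from those of Treg, with HCME before LME, whereas in Treg the 2 kinds of sEV are mixed. The part of signal range and of this numbering in the Bst2 difference was not tested.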

How the results depend on the processing

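The number of antiviral genes called stayed at 0 in every subset and setting, without a fold threshold included, except in CD4+ Tconv with arrays left out in turn (0 to 1), where Trim30a was called without LME replicate 2. For differences between subsets, leaving out arrays gave 0 to 1 for Treg minus CD4+ Tconv (Bst2) and 0 to 1 for Treg minus CD8+ T cells (Usp18), and 0 otherwise. The median difference in CD4+ Tconv, -0.02, was 0.24 with arrays centred above background, where all probe sets together had a median of 0.32, and -0.21 over genes above background. In Treg the median of 0.38 was 0.69 over genes above background, which admits a gene through its higher group, and 0.17 to 0.44 with arrays left out, lowest without LME replicate 2. It was 0.28 with arrays centred and 0.36 after quantile normalization. Over all probe sets the 225 calls in CD4+ Tconv were 475 with array weights, 446 over probe sets above background, 30 after quantile normalization, 13 centred, 0 by an unpaired Student test and 0 to 442 with arrays left out, and Treg had 26 calls with all arrays in one fit. The smallest adjusted p of an antiviral gene in CD4+ Tconv was 0.0339 with array weights and 0.0436 over probe sets above background (limma), at differences under the fold threshold. Over all settings 15 of the 34 genes kept their direction in CD4+ Tconv, 20 in CD8+ T cells and 23 in Treg. The trend and robust, replicate block, single fit, background filter and Student settings leave a gene's difference unchanged. Direction could not turn there, and no share over all probe sets stands beside these counts. Of the genes given per array, those that turned in CD4+ Tconv were Zbp1 (0.043 centred) and Samhd1, at 0.21 after quantile normalization, 0.22 after cyclic loess, 0.067 centred, 0.065 with array weights and -0.47 to 0.32 with arrays left out. In Treg, leaving out arrays gave -1.06 to 0.077 for Isg15, -0.018 to 0.26 for Mx1, -0.043 to 0.097 for Oas2 and -0.067 to 0.243 for Rsad2. Oas2 was at -0.07 and Rsad2 at -0.033 with arrays centred, and Rsad2 at -0.0047 with array weights. The cause was not tested.

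The labels do not say whether the replicate numbers pair the samples. Arrays of the same number correlated by -0.17 to 0.18 in their deviations, which with 3 arrays per group cannot settle it. With a replicate block 0 antiviral genes were called in each subset and in each difference between subsets, and 2 of all probe sets were called in CD4+ Tconv. The narrow signal range of CD4+ Tconv and the 3 arrays per group limit what can be seen.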
